A study of Rattus norvegicus with 11 samples.

Results

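The 10 genes described here were Socs1, Socs2, Socs3, Cish, Ghr, Igf1, Stat3, Stat5a, Stat5b and Jak2, taken by symbol from a table of 16810 gene rows. They cover the growth hormone receptor, the kinase and transcription factors that carry its signal, 1 of its main products and 4 feedback inhibitors of cytokine signalling. The set was selected on CPM values by maternal diet, because Socs2 was higher in every animal of the high-fat group and Socs3 in 1 of them, so differences by maternal diet are described below without a test. All 10 were found, and all 10 passed the filter on low counts, which kept 10814 genes.

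RNA was measured in the soleus of 11 male Sprague Dawley rats aged 12 months. The high-fat group was 5 offspring of dams fed 23.3% fat, mainly lard, with 20% sucrose. The control group was 6 offspring of dams fed 6% soy oil with 10% sucrose. Dams ate these diets for 3 weeks before mating and until weaning at day 21, after which every offspring ate standard chow, so the groups differed in early exposure and not in adult diet. High-fat animals 1 to 5 here are those named C91, H1, C25, H20 and A37, which the count table's column names number HF1, HF3, HF4, HF5 and HF6. Each animal came from its own litter, and the labels name no transgene or mutation.

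Growth hormone binds its receptor on the cell surface and activates the kinase JAK2, which phosphorylates STAT5A and STAT5B. The STATs enter the nucleus and switch on Igf1, a growth factor that mediates much of the hormone's effect, and also Cish and Socs2. The SOCS proteins then bind receptors or kinases and shut the signal off. SOCS2 and CISH act mainly on growth hormone and STAT5 signalling, whereas SOCS3 is the classic brake on interleukin-6 signalling through gp130 and STAT3, and SOCS1 on interferon signalling.

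The best known STAT5 recognition sequence is TTCNNNGAA, which reads the same on both strands. RefSeq promoter windows of assembly GRCr8, running from 250 bases before to 50 after the gene's start, were matched for 9 of the 10 genes, all except Socs2. The letters of this motif occurred in 2 of the 9 windows, those of Cish and Socs1. Sequence outside these windows, or near another start of a gene, was not searched. The stretches that hold them are shown because Cish is the textbook STAT5 target of the set, with the motif in capitals. The Cish stretch lies at chr8:116850719-116850868 on the plus strand and the Socs1 stretch at chr10:5389324-5389423 on the plus strand.
Cish: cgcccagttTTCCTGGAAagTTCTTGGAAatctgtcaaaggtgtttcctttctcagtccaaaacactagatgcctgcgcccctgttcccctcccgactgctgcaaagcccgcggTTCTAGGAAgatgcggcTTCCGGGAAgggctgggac
Socs1: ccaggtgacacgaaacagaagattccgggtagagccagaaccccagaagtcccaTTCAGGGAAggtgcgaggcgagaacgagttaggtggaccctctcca
The Cish window held 4 copies, which began 241, 230, 136 and 119 bases before the start, and the Socs1 window held 1, which began 196 bases before it. Of all 33469 promoter windows of this length, 8.87% held at least 1 copy and 0.00598% held 4 or more. A match is a description of the letters, not evidence that a factor bound there, and these data did not measure binding.

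Depth was between 10.2 and 15.4 M (mega) counted reads per library. Values below are reads per M counted reads (CPM), scaled between libraries by edgeR's TMM method. CPM is not corrected for transcript length, so levels were compared between animals and not between genes. The tissue label was checked with slow fibre markers such as Myh7, which summed to 70665 to 101089 CPM in high-fat animals and 81543 to 99894 CPM in control animals. Fast fibre markers summed to 4012 to 27728 CPM in high-fat animals and 2664 to 36094 CPM in control animals. In whole muscle, fewer cells of a type and less RNA per cell cannot be told apart. Over all genes, edgeR's quasi-likelihood test called 0 of 10814 by maternal diet after Benjamini-Hochberg adjustment (0%), with 523 at an unadjusted p under 0.05, and DESeq2 called 7.

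Of the 10 genes, Socs2 was the only one whose high-fat and control animals did not overlap. Its levels were 8.82, 7.25, 10.5, 6.82 and 7.88 CPM in high-fat animals 1 to 5, against 3.92, 6.02, 5.75, 5.35, 4.59 and 5.16 CPM in control animals 1 to 6. Every high-fat animal therefore lay above every control animal, a pattern that 0.203% of all genes tested showed in this direction. Because the gene was chosen for this pattern, nothing is read from that share. The group means were 8.25 ± 1.45 CPM in high-fat animals (SD, n = 5) and 5.13 ± 0.774 CPM in control animals (SD, n = 6). The log2 fold change was 0.68 ± 0.16. The error of a fold change is an SE worked back from edgeR's quasi-likelihood F statistic, and for the 10 genes it is a description and not a test.

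The animals next to the gap in Socs2 were close. High-fat animal 4 had 107 reads, or 6.82 CPM with an exact 95% Poisson interval of 5.59 to 8.24 CPM. Control animal 2 had 79 reads, or 6.02 CPM with an interval of 4.77 to 7.50 CPM. These intervals cover counting error only, and they overlap. The groups stayed apart without any TMM scaling, where the lowest high-fat animal was at 6.70 CPM and the highest control animal at 6.26 CPM. Leaving out each animal in turn gave log2 fold changes of 0.58 to 0.75. Animal names begin with A, C or H, letters that the labels do not explain, and within these the log2 ratio was 0.58 for A (1 high-fat and 3 control animals), 1.00 for C (2 and 2) and 0.39 for H (2 and 1).

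**Figure D1:**
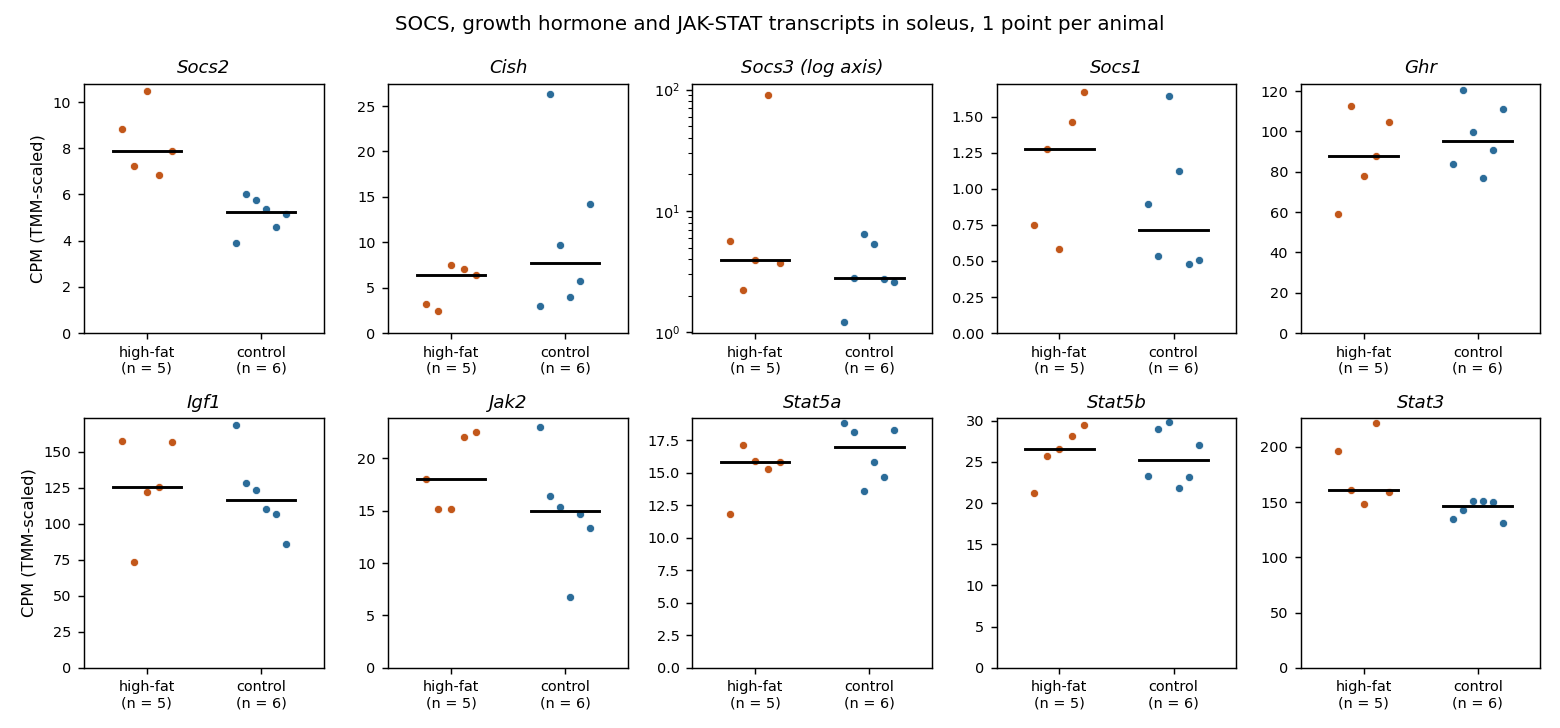
TMM-scaled CPM of the 10 genes in soleus, 1 point per animal, with high-fat animals (n = 5) left of control animals (n = 6) and a line at each group's median; the Socs3 axis is logarithmic. Socs2 was the only gene whose groups did not overlap, and high-fat animal 4 stood at 90.4 CPM for Socs3.

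Cish, the other SOCS gene tied to growth hormone and STAT5, did not follow Socs2 by maternal diet. Its levels were 3.16, 2.45, 7.54, 7.01 and 6.45 CPM in high-fat animals, against 2.94, 26.3, 9.68, 3.95, 5.69 and 14.2 CPM in control animals. None of the high-fat animals exceeded the control mean, but the groups overlapped, and control animals 2, 6 and 3 held the 3 highest values. Means were 5.32 ± 2.34 CPM in high-fat animals (SD, n = 5) and 10.5 ± 8.79 CPM in control animals (SD, n = 6), with a log2 fold change of -0.96 ± 0.52. Control animal 2 carried much of it, since the fold change was -0.44 without that animal, and it was -0.41 with the name letter as a covariate. The spread of Cish among controls was wide for this tissue. Its coefficient of variation was 84.1%, at percentile 99.4 of all genes tested, whose median was 18.1%. Genes with few counts vary more by sampling alone, and Cish had between 23 and 345 reads per library. Exact 95% Poisson intervals, which cover counting error only, were 23.6 to 29.2 CPM in control animal 2 and 12.2 to 16.3 CPM in control animal 6. In control animal 1 the interval was 2.06 to 4.07 CPM, and the intervals of these animals did not overlap.

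Socs3 was set apart by 1 animal. Its levels were 5.66, 2.24, 3.94, 90.4 and 3.76 CPM in high-fat animals, against 1.22, 2.82, 6.48, 5.35, 2.74 and 2.62 CPM in control animals. High-fat animal 4, with 1419 reads, was 27.5 times the median of the other 10 animals and 13.9 times the next highest, while the other high-fat animals lay inside the control range. The log2 fold change of 2.61 ± 0.90 over all animals was 0.16 without high-fat animal 4, and the high-fat mean was then 3.90 ± 1.40 CPM (SD, n = 4) against 3.54 ± 1.97 CPM in control animals (SD, n = 6). With the name letter as a covariate the fold change was 1.09.

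Socs1, whose product restrains interferon signalling, was the least abundant in reads, with 7 to 28 per library. Its levels were 0.749, 1.28, 0.586, 1.47 and 1.67 CPM in high-fat animals, against 0.898, 0.533, 1.64, 1.13, 0.480 and 0.509 CPM in control animals. The groups overlapped across nearly their whole range, and the log2 fold change was 0.46 ± 0.40, or 0.27 to 0.73 when single animals were left out. With so few reads, a difference of that size did not stand out from the spread between animals.

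Upstream of these inhibitors, Ghr, the growth hormone receptor, was at 59.1, 113, 77.6, 88.0 and 105 CPM in high-fat animals, against 84.0, 121, 99.5, 76.8, 90.6 and 111 CPM in control animals. High-fat animal 1 was the lowest of the 11, and the other high-fat animals lay inside the control range. The log2 fold change was -0.14 ± 0.17, from -0.24 to -0.02 when single animals were left out.

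Jak2, the receptor's kinase, was at 18.1, 15.1, 15.2, 22.1 and 22.5 CPM in high-fat animals, against 23.0, 16.4, 15.3, 6.76, 14.7 and 13.4 CPM in control animals. Control animal 4 was far below the rest and control animal 1 was the highest of all. All high-fat animals lay above the control mean, as they did for Socs2 and Stat3, so 3 of the 10 genes showed this against 4.74% of all genes tested, a contrast the choice of genes had used. The log2 fold change of Jak2 was 0.32 ± 0.23, and it was 0.17 without control animal 4 and 0.48 without control animal 1.

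Stat5a and Stat5b, the transcription factors that growth hormone activates, differed little between the groups. Stat5a ran from 11.8 to 17.2 CPM in high-fat animals (median 15.8) and from 13.6 to 18.8 CPM in control animals, with a log2 fold change of -0.13 ± 0.13 (-0.18 to -0.05 without single animals). Stat5b ran from 21.2 to 29.6 CPM in high-fat animals and from 21.8 to 29.9 CPM in control animals, with a log2 fold change of 0.03 ± 0.12 (-0.02 to 0.10 without single animals). High-fat animal 1 was the lowest of 11 for both, as it was for Ghr. These neighbouring genes are close copies of each other, and reads of 36 cycles may be split between them.

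Stat3, the transcription factor downstream of gp130 and a target of SOCS3's restraint, was at 197, 161, 148, 221 and 159 CPM in high-fat animals, against 135, 142, 151, 151, 150 and 131 CPM in control animals. High-fat animals 1, 2, 4 and 5 were above every control animal, and high-fat animal 3 was inside the control range. Control animals were tightly grouped, with a coefficient of variation of 6.14%, at percentile 3.18 of all genes tested. The log2 fold change was 0.30 ± 0.11, and 0.21 without high-fat animal 4.

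Igf1, the growth factor induced by growth hormone, was at 157, 73.6, 122, 125 and 157 CPM in high-fat animals, against 168, 128, 123, 110, 106 and 86.0 CPM in control animals. The groups overlapped, and the log2 fold change was 0.08 ± 0.20, with values of -0.01 to 0.22 when single animals were left out. High-fat animal 2 and control animal 6 had the lowest Igf1. The same 2 animals had the lowest sums of 8 fibroblast and matrix markers such as Col1a1, at 1347 CPM in high-fat animal 2 and 1127 CPM in control animal 6. High-fat animal 1, at 157 CPM of Igf1, had the third lowest of these sums, 1749 CPM. They ran from 1347 to 3892 CPM in high-fat animals and from 1127 to 3961 CPM in control animals. Macrophage marker sums were also lowest in high-fat animal 2, at 292 CPM. They were 1828 CPM in high-fat animal 5, 1090 CPM in high-fat animal 1 and 1029 CPM in control animal 1, the 3 animals highest in Igf1. High-fat animal 4 had 1105 CPM of macrophage markers, more than high-fat animal 1 or control animal 1, but ranked 5 of 11 in Igf1. No marker was at 0 in every library, and the part of either cell type in the Igf1 levels was not tested.

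**Figure D2:**
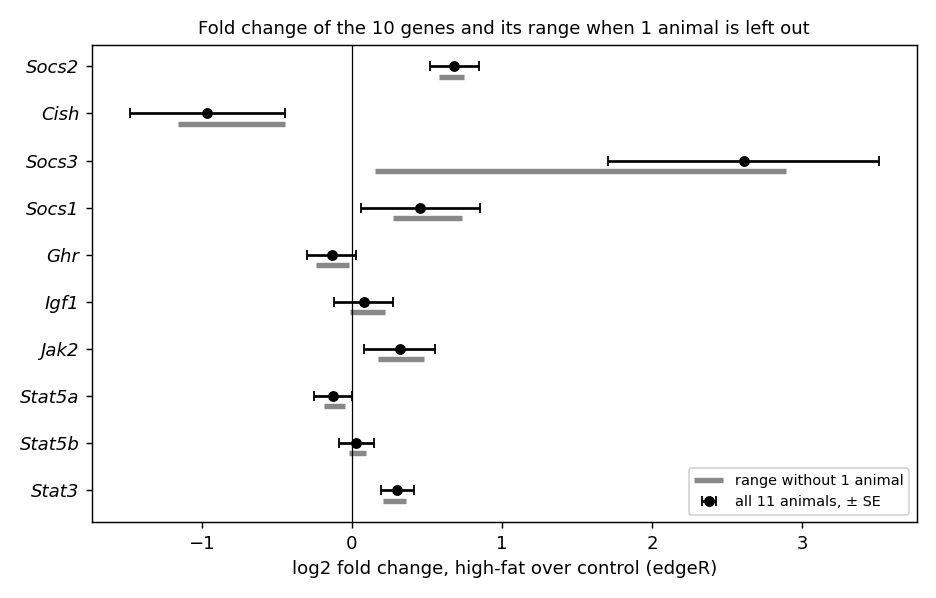
Log2 fold change of each of the 10 genes, high-fat over control, from edgeR over 5 high-fat and 6 control animals (points, bars ± SE) and its range when 1 animal was left out (grey). The range is widest for Socs3, which was 0.16 without high-fat animal 4, and lies above 0 for Socs2, from 0.58 to 0.75.

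High-fat animal 4 also had high levels of interleukin-6 and of genes described as STAT3 targets. Il6, the cytokine that signals through gp130, had 231 reads in this animal, or 14.7 CPM. The other 10 animals had 8 reads together, with at most 3 in any of them and none in 5. Il6 did not pass the filter on low counts and was singled out after its values were seen. Il6r, the gene of its receptor, was at 40.3 CPM in high-fat animal 4, with 15.9 to 24.7 CPM in the other high-fat animals and 10.6 to 18.0 CPM in control animals. Osmr, the oncostatin M receptor gene, was at 23.0 CPM in this animal, with 7.89 to 12.9 CPM in the other high-fat animals and 5.03 to 10.8 CPM in control animals.

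Of 19 genes described as STAT3 targets, 15 (78.9%) had their highest level of all 11 animals in high-fat animal 4. Of all genes tested, 9.30% did. Among the lists set out below, 8 of 21 gp130 and other cytokine genes (38.1%) and 3 of 12 STAT5 targets (25.0%) did. So did 2 of 6 other JAK and STAT genes (33.3%) and 1 of 3 other SOCS genes (33.3%). For growth hormone and IGF genes it was 2 of 10 (20.0%), and for genes that restrain or adapt JAK-STAT signalling 1 of 15 (6.67%). The lists were chosen with earlier results of these data known, and the 10 genes in part for the Socs3 level of this animal. The contrast is therefore a description and not a test, and it rests on high-fat animal 4 alone. The transcription factor gene Junb was at 364 CPM there and at most 111 CPM elsewhere, and Bcl3 was at 44.7 CPM and at most 8.91 CPM. The metallothionein gene Mt2A was at 45.4 CPM, and at most 7.91 CPM in the others. Serpina3n, a protease inhibitor gene, was at 206 CPM against at most 70.7 CPM, and Lcn2, which encodes lipocalin 2, was at 11.5 CPM against at most 4.02 CPM. Among the 10 genes, those of the growth hormone arm were not highest in this animal. It ranked 5 of 11 for Socs2, 5 for Cish, 5 for Igf1, 7 for Ghr, 8 for Stat5a, 4 for Stat5b and 3 for Jak2.

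Other markers moved with the same animal. Neutrophil and monocyte markers summed to 62.7 CPM in high-fat animal 4 and 37.8 CPM in high-fat animal 1. Their sums ran from 10.7 to 62.7 CPM over all high-fat animals and from 7.59 to 16.6 CPM in control animals. Of the 5 tested, 4 were highest in high-fat animal 4. The other, Ly6c, was lowest there, at 3.51 CPM against 3.58 to 8.64 CPM elsewhere. Of 5 red blood cell markers, 5 were highest in high-fat animal 4, with sums of 815 to 1733 CPM in high-fat animals and 952 to 1424 CPM in control animals. Macrophage markers were not, with 0 of 11 highest in it. High-fat animal 5 was highest for 11 of 11 macrophage markers, and for 14.1% of all genes tested. The macrophage sums ran from 292 to 1828 CPM in high-fat animals and 351 to 1029 CPM in control animals. No marker of these lists was at 0 in every library, and their part in the Socs3 level was not tested.

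**Figure D3:**
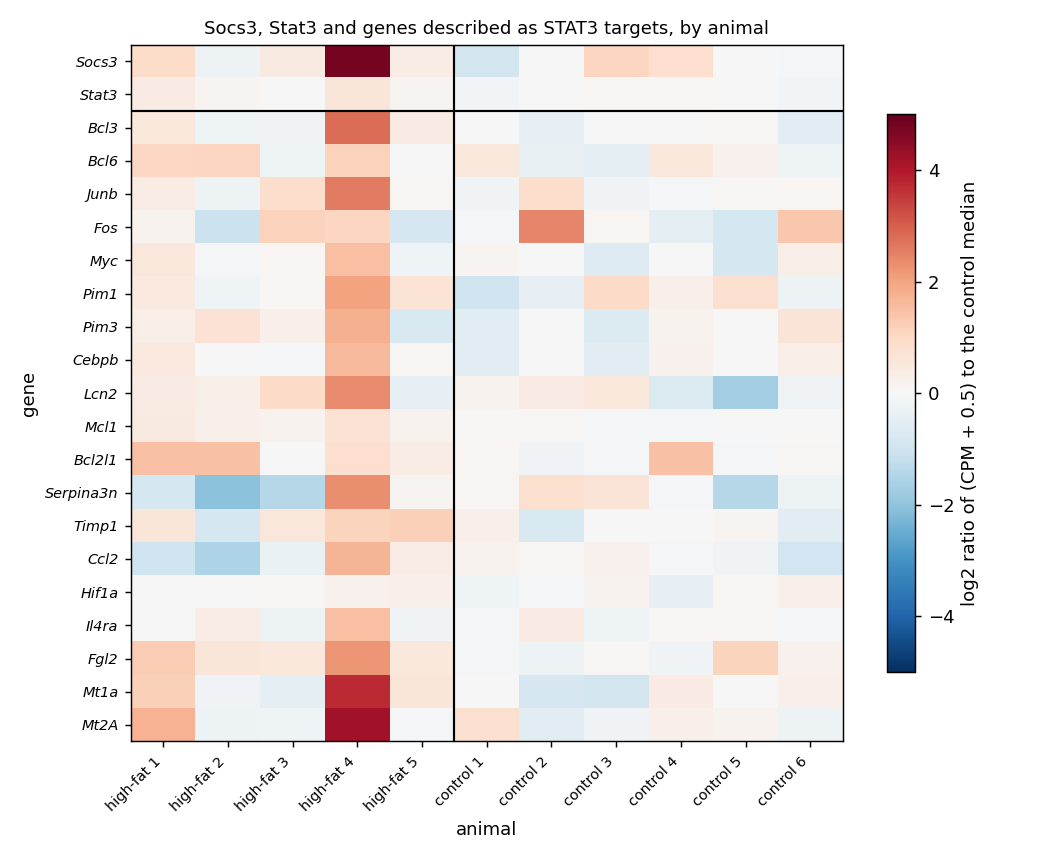
Log2 ratio of CPM plus 0.5 to the control median for Socs3, Stat3 and 19 genes described as STAT3 targets (gene by row), in 5 high-fat animals left of 6 control animals. High-fat animal 4 holds the highest level for 15 of the 19 targets, and Fos is highest in control animal 2.

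Among the wider pathway lists no gene was called by maternal diet, with a smallest adjusted p of 0.974 from edgeR's quasi-likelihood test, so the values below are descriptions. All genes tested had a median log2 fold change of 0.00. The 10 tested genes of growth hormone and IGF ligands, receptors and binding proteins had a higher mean in high-fat animals in 9 and a lower one in 1, with a median log2 fold change of 0.18. Igfbp3 and Igfbp4, which encode carriers of IGFs, and the related gene Igfbp7 were at 0.28 ± 0.16, 0.29 ± 0.18 and 0.14 ± 0.12. Without control animal 6, Igfbp4 was at 0.18 and Igfbp7 at 0.07. Igf2, a fetal-type growth factor gene, was at 0.39 ± 0.24, and at 0.05 without high-fat animal 4. That animal had 1097 CPM of Igf2, with 386 to 568 CPM in the other high-fat animals and 328 to 540 CPM in control animals. Gh1, the hormone's own gene, and Igfals did not pass the filter in this muscle.

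The 3 other SOCS genes tested, Socs4, Socs5 and Socs6, had log2 fold changes of 0.32 ± 0.20, 0.02 ± 0.10 and -0.04 ± 0.10. The 6 other JAK and STAT genes all had higher means in high-fat animals, with a median of 0.15. Stat2 and Stat6, which carry interferon and interleukin-4 signals, were at 0.26 ± 0.10 and 0.28 ± 0.14, and Jak1, a gp130 kinase gene, was at 0.20 ± 0.11. Of the 6, 1 had an unadjusted p under 0.05 (edgeR), and none did without high-fat animal 4. Genes that restrain or adapt JAK-STAT signalling were split, with 7 of 15 higher, 8 lower and a median of -0.01. Ptpn1, a phosphatase gene, was at 0.30 ± 0.18, and at 0.14 without high-fat animal 4, and Tceb1, an elongin subunit of SOCS ubiquitin ligases, was at -0.27 ± 0.15. Pias1, an inhibitor of STAT factors, was at 0.20 ± 0.11 and the phosphatase gene Ptpn11 at -0.20 ± 0.13.

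A list of gp130 and other cytokine and receptor genes, not all of which signal through gp130, had 21 genes tested. Of these, 15 had higher and 6 lower means in high-fat animals (median 0.10). An unadjusted p under 0.05 (edgeR) was found for 4 of the 21, or 3 of 20 without high-fat animal 4. Ifngr1, an interferon gamma receptor gene, averaged 110 ± 15.9 CPM in high-fat animals (SD, n = 5) and 79.6 ± 10.8 CPM in control animals (SD, n = 6). Its log2 fold change was 0.47 ± 0.12, and 0.40 without high-fat animal 4. Il6r was at 0.76 ± 0.23, Osmr at 0.73 ± 0.26 and Cntfr, the receptor gene for ciliary neurotrophic factor, at 1.13 ± 0.31. Without high-fat animal 4 those 3 were at 0.49, 0.42 and 0.89.

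The described targets of STAT3 and STAT5 were likewise set out with and without that animal. The 19 STAT3 targets had higher means in high-fat animals in 18 (median 0.66, with 10 at an unadjusted p under 0.05), and in 15 without high-fat animal 4 (median 0.25, with 1). Over all genes tested, 50.9% had higher means in high-fat animals and 4.84% an unadjusted p under 0.05, or 52.6% and 3.33% without that animal. Mt2A was at 2.41 ± 0.82 with all animals and 0.55 without it, Mt1a, another metallothionein gene, at 2.25 ± 0.73 and 0.66, Fgl2 at 0.96 ± 0.34 and 0.53, and Mcl1, a survival gene, at 0.36 ± 0.11 and 0.25. The 12 STAT5 targets had higher means in 8, both with all animals (median 0.20) and without high-fat animal 4 (median 0.30). Cdkn1a, which encodes the cell cycle inhibitor p21, was at 1.06 ± 0.38 and 1.03. Another animal mattered more for it, since high-fat animal 5 had 331 CPM and the value was 0.55 without that one. Bcl6, a repressor gene in both lists, was at 0.62 ± 0.28 and 0.49. Bcl2l1, also in both, was at 0.60 ± 0.34 and 0.62, with 0.42 without high-fat animal 1 and 0.98 without control animal 4. The difference between these lists was not tested.

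Covariation of the genes across animals was examined as Spearman's rho of log2 CPM after subtracting each diet group's median, with 100000 shuffles of the animals within diet groups. Centring removes the diet difference that chose Socs2. It leaves the single high Socs3 value that also chose the set, so relations of Socs3 are given without a p. Over all genes, none was called for Socs2 or Igf1 after Benjamini-Hochberg adjustment (0 of 10813 for each, 0%), and 324 and 1363 had an unadjusted permutation p under 0.05. These counts of 0 say little with 11 animals. The smallest permutation p that the shuffles allowed was 1e-05, which was reached for Igf1, while the smallest for Socs2 was 0.00028. A lone gene at 1e-05 has an adjusted p of 0.108, and at least 3 genes at it were needed for a call. The smallest adjusted permutation p was 1 for Socs2 and 0.0541 for Igf1. Of 15 pairs of Socs2 or Igf1 with another of the genes, Socs3 left out, 7 had a positive rho. Beside the 324 (Socs2) and 1363 (Igf1) of 10813 genes above, 1 of the 15 pairs had an unadjusted p under 0.05.

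That pair was Igf1 with Jak2, with rho = 0.78 (permutation p = 0.0104, adjusted p = 0.317, n = 11). Pearson's r was 0.50 (permutation p = 0.0920, adjusted p = 0.410), rho over all 11 animals without centring was 0.87, and r was 0.63 without the 2 animals farthest in Igf1.

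Socs3 and Stat3 had rho = 0.72 and r = 0.82 over the 11 animals. The rho was 0.67 without high-fat animal 4 and 0.69 without control animal 1, the extremes in Socs3, and without both it was 0.38 and r was 0.32. Socs3 with Stat5a gave rho = -0.75 and r = -0.31, and r was -0.58 without the same 2 animals. Socs3 with Socs1 gave rho = 0.19, or 0.27 without those animals. Socs2 with Socs3 gave rho = 0.36 and r = -0.03, and high-fat animal 3, the highest in Socs2, ranked 5 of 11 in Socs3.

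The other named pairs had no unadjusted p under 0.05. Ghr with Igf1 gave rho = -0.28 (permutation p = 0.435, adjusted p = 0.761), or -0.03 without the 2 animals farthest in Igf1. Socs2 with Igf1 gave rho = 0.12 (permutation p = 0.746) and r = -0.03, but rho was 0.83 and r was 0.51 without high-fat animal 3 and control animal 1, the animals farthest in Socs2. Its value thus depended on those animals. Socs2 with Ghr gave -0.14 (permutation p = 0.718), Socs2 with Stat5b 0.20 (p = 0.568) and Socs2 with Cish 0.45 (p = 0.163), and without the same animals rho was 0.00, 0.13 and 0.20. Adjusted p was 1 for each of these Socs2 pairs.

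By the within-diet rho over 11 animals, the genes most like Socs2 were Slc25a27 (0.94), Vps37b (0.92), Ssbp3 (0.90), Ammecr1l (0.88) and B4galt4 (0.85). Those most like Socs3 were Hpcal1 (0.93), Socs4 (0.93), LOC685171 (0.87), Psen2 (0.85) and Itpkc (0.85). Igf1 was closest to Figf (0.98), Parg (0.97), Klhl5 (0.97), C4b (0.96) and Arf4 (0.95). Figf encodes a vascular growth factor and C4b a complement component whose near-identical copy C4a may share its reads. These are the highest of many rho values, and none for Socs2 or Igf1 passed the adjustment.

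**Figure D4:**
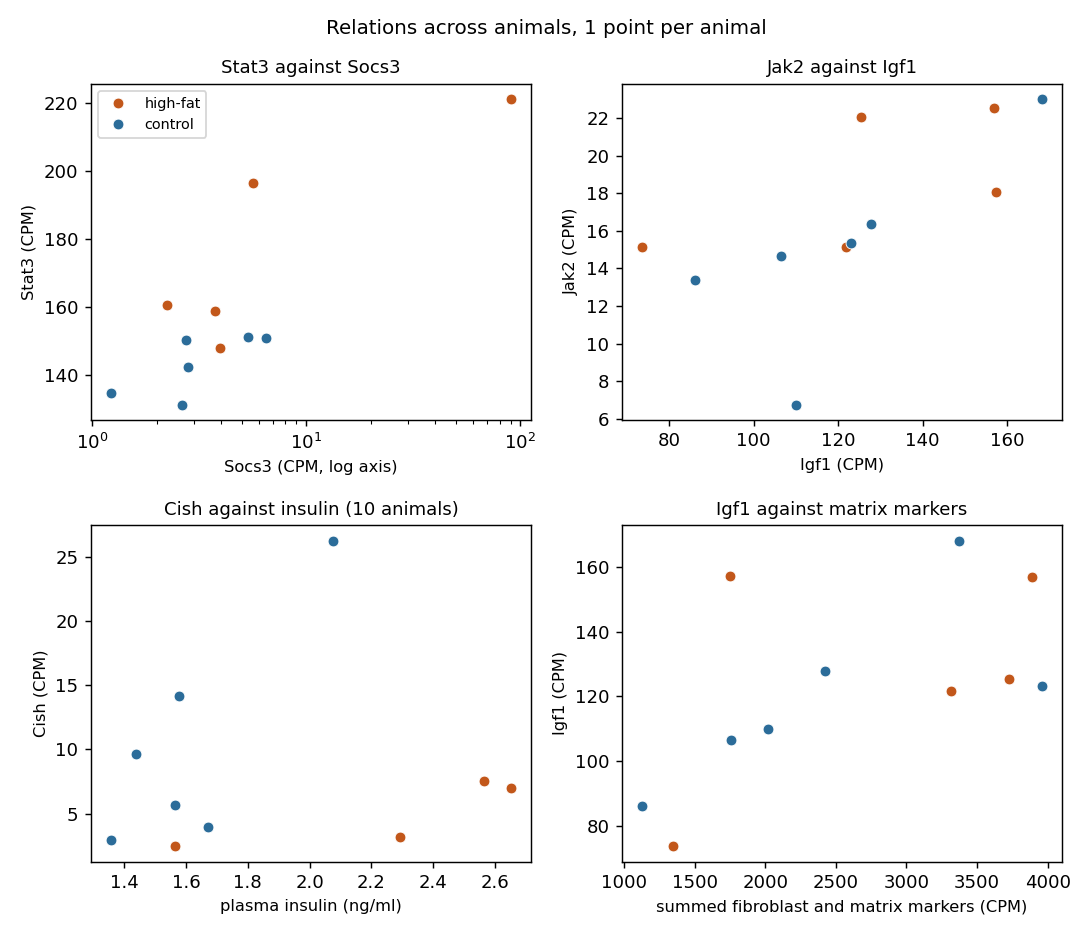
Stat3 against Socs3, Jak2 against Igf1, Cish against plasma insulin and Igf1 against summed fibroblast and matrix markers, 1 point per animal with high-fat and control animals coloured apart and the Socs3 axis logarithmic; levels are in CPM. High-fat animal 4 is the lone point at 90.4 CPM of Socs3, and insulin was not given for high-fat animal 5.

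The labels give each animal's body weight, total fat and plasma insulin, which were compared with the 10 genes in the same within-diet way. Over all genes 0 of 10814 (0%) were called for each measure, none of the 10 among them. An unadjusted permutation p under 0.05 was found for 681 of 10814 genes with body weight, 1096 with fat share and 214 with insulin. The same limit on the permutation p applied with body weight and fat share, though the smallest reached was 0.00014 and 2e-05. With insulin, given for 10 animals, fewer different shuffles exist, so a call needed more genes at the smallest p. The smallest reached there was 0.00064. With so few animals the counts of 0 say little about single genes. Among the 10 genes rho ran from -0.50 to 0.35 with body weight, from -0.62 to 0.17 with fat share and from -0.13 to 0.78 with insulin.

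Of 30 relations, Cish with insulin was the only one whose rho had an unadjusted p under 0.05, at rho = 0.78 (permutation p = 0.0155, adjusted p = 1, n = 10) and r = 0.68 (permutation p = 0.00662, adjusted p = 1). It was within diet groups only, since rho over the 10 animals without centring was 0.25, and without high-fat animals 3 and 4, the extremes in insulin, centred rho was 0.48 and r 0.58. Socs2 with insulin was the reverse case when all 10 animals were kept. Its rho was 0.72 over the 10 animals without centring, a description given without a p because it holds the diet difference that chose Socs2. Within diet groups rho was 0.37 (permutation p = 0.327, adjusted p = 1). Without high-fat animals 3 and 4, the centred rho of Socs2 with insulin was 0.76 and r was 0.69.

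Ghr with fat share of body weight gave rho = -0.62 (permutation p = 0.0833, adjusted p = 0.534, n = 11) and r = -0.70 (permutation p = 0.0411, adjusted p = 0.366), and r was -0.31 without high-fat animals 1 and 4, the extremes in fat share. Igf1 with body weight gave rho = -0.50 (permutation p = 0.144, adjusted p = 0.858), or -0.15 without the 2 animals farthest in weight.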

How the data were processed

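The deposited file holds raw counts of reads by gene symbol for each animal, and its columns were matched to animals by the names in the labels. FastQC, BWA, HTSeq and edgeR were used upstream, per the submitters' processing notes. The build, annotation, strand setting and versions are not given in the sources used. Per the labels' protocols, poly(A) RNA from 2 µg of total RNA was sequenced for 36 cycles. The labels' diets differ slightly between fields, and those of the treatment field are used.

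edgeR's filterByExpr kept 10814 of 16810 rows, and 2712 of the 5996 removed had no count. A count of 0 allows up to 3 reads, or 0.195 to 0.295 CPM. Maternal diet was tested by edgeR's quasi-likelihood method with TMM scaling and Benjamini-Hochberg adjustment at 0.05; log2 CPM for correlations used a prior count of 2. edgeR's common biological coefficient of variation came to 0.234. Any pair of same-group libraries differed 25.0-fold or more beyond sampling noise, so each counted as 1 replicate.

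The genes and lists were chosen with earlier results of these data known. Named genes were the 10 genes, up to 4 per pathway list by smallest diet p, the 5 with the highest rho to Socs2, Socs3 and Igf1, and 8 preset pairs plus the 4 strongest. A gene that this rule picks is not reported here. The STAT3 targets named for high-fat animal 4 were picked for its levels. Alternatives were other scalings, filters, tools and priors, the name letter as a covariate, Pearson's r, uncentred correlations and leaving out each animal. Scripts were tested on simulated data. The software was Python 3.11.15 with SciPy 1.17.1, pandas 2.3.3 and NumPy 2.4.6, and R 4.3.3 with DESeq2 1.42.0 and edgeR 4.0.16.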

Additional observations from a re-analysis of the deposited data

Results flagged for a closer look

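Socs3 was 90.4 CPM in high-fat animal 4, with 5.66 CPM as the nearest value in its group, far from the rest by Dixon's ratio. The set was chosen in part for this value, so it is a description and not a test. Of the other 39 sets of values, each 1 gene or marker sum in 1 diet group, 2 had an animal far from the rest, and chance alone gives about 1 in 20. Summed adipocyte markers were 525 CPM in high-fat animal 5, with 252 CPM nearest, although control animal 3 had 532 CPM. Summed satellite cell markers were 69.4 CPM in control animal 3, with 49.3 CPM nearest.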

How the results depend on the processing

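DESeq2 called 7 genes by maternal diet where edgeR called 0, none of them among the 10 genes, and library size scaling gave 6 genes following Igf1 in place of 0. The cause of either was not tested. The log2 fold changes of the 10 genes other than Socs3 moved by less than 1 SD between animals under each alternative run. That of Socs3 was 1.09 with the name letter and 0.16 without high-fat animal 4. Dropping high-fat animal 5 as well, an alternative chosen after seeing the data, gave 0.18 for Socs3, 0.02 for Socs1, 0.11 for Jak2, -0.03 for Igf1 and -0.07 for Stat5b. Weak correlations changed sign. Pearson's r was -0.028 for Socs2 with Socs3 and -0.028 for Socs2 with Igf1, and Socs2 with Ghr was 0.045 with library size scaling. Leaving out single animals gave rho from -0.35 to 0.14 for Socs2 with Ghr, -0.16 to 0.53 for Socs2 with Igf1, -0.091 to 0.56 for Socs2 with Stat5b and -0.024 to 0.52 for Socs3 with Socs1. Calls over all genes were not recounted for correlations without single animals. No paired analysis was possible because the numbers in the count table's column names mark different animals from different litters, and no label ties a high-fat animal to a control animal. Low counts limit Socs1, with 7 to 28 reads per library.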
